A study of Mus musculus with 21 samples.

Results

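Microglial RNA of mice without apolipoprotein E (ApoE) was compared with that of wild-type mice in 10 of the 21 libraries of the series. The 4 knockout libraries were labelled as uninjected females of the strain B6.129P2-Apoetm1Unc/J, and the 6 wild-type libraries as uninjected C57BL/6 females. The mice of both groups were 12 to 18 weeks old. A seventh wild-type library, number 8, was kept out of the test because its RNA profile differed from those of the other 6, and its values are shown beside them. The libraries were thus chosen by the measured values of all genes, not by a label alone, and leaving number 8 out narrows the spread within the wild-type group, so counts are also given with library 8 in the fit. The other 10 libraries of the series came from injected knockout males and were not used. The knockout allele was made in 129-derived cells and carried onto the C57BL/6 background, and the labels do not call the wild-type mice littermates. Whether each library of a group is a mouse of its own is not given in the labels. The p-values therefore describe only how much these samples vary, which may partly be technical.

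ApoE is a secreted protein that carries cholesterol and phospholipid between cells. In the brain it is made mainly by astrocytes, and by microglia, the resident macrophages, once they take up lipid or debris. Microglia in the undisturbed adult brain express receptors with which they sense their surroundings, among them P2ry12, Tmem119 and Cx3cr1, and this state depends on TGF-beta and on factors such as Sall1. Near plaques, dying cells or myelin debris they turn toward a state called disease-associated, in which these receptors decline while Apoe itself, Lpl, Cst7, Clec7a, Itgax and lysosomal genes increase. The lipid receptor Trem2 and its adaptor Tyrobp are known to be needed for the full change, and ApoE is thought to act downstream of them.

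The libraries differed between genotypes in more than Apoe. Reads per library, recovered from the values, came to 2038601 to 3054976 in the wild-type group and 4247865 to 4969287 in the knockout group, yet the knockout libraries held 8117 to 10479 detected genes against 14291 to 15248. After thinning to 2038601 reads each, the ranges were 7939 to 10299 and 14289 to 15033. Of the genes with at least 20 reads in a knockout library, 39.5% (4431 of 11219) were at 0 in another knockout library, against 1.61% (170 of 10545) in the wild-type group. Spearman's rho over genes was 0.921 to 0.938 between wild-type libraries, 0.754 to 0.847 between knockout libraries and 0.671 to 0.760 across genotypes. Library 8 reached 0.759 to 0.772 with the other wild-type libraries and 0.698 to 0.784 with the knockout libraries. Mitochondrial ribosomal RNA made up 1.36% to 1.59% of the wild-type values, 0.647% to 0.886% of the knockout values and 4.67% of library 8. Although all were labelled female, the 6 wild-type libraries had between 11 and 36 reads of Y-linked genes, with Xist at 1127 to 1279, while the knockout libraries and library 8 held 0 Y-linked reads and Xist at 1980.2 to 3292. The part of these library-wide differences in the results that follow was not tested.

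Apoe itself was at or near 0 in each knockout library, which checks the genotype labels. The gene lies on chromosome 7, 19696109 to 19699188, minus strand (GRCm38). Its normalised count, the read count after division by a library-wide factor, was 13196, 14042 and 17164 in the wild-type libraries, given here and further on as the lowest, the median and the highest of the 6. In knockout libraries 1 to 4 it was 10.2, 0, 0 and 23.1, so that the groups did not overlap. The difference in mean log2(normalised count + 1), called the log2 difference from here on, was −11.80 (SE 0.77, limma adjusted p = 5.43e-07). Rises and falls given with an SE are log2 differences, and a pair of numbers joined by a dash is the range of a group. An exact two-sided permutation test over all 210 assignments of the genotype labels gave p = 0.00476, the smallest value it can give. Library 8 held 1011, far below its group and 122-fold above the knockout mean. Reads were tags from the 3′ ends of transcripts, so these values show how little Apoe RNA remained and not the disruption itself. Apoc1, the neighbouring apolipoprotein gene (chromosome 7, 19689481 to 19692660, minus strand), was at 24.6, 30.5 and 40.8 in the wild-type libraries and at 0 in all knockout libraries and in library 8. Zeros were common at this level. At means of 10 to 50, 66.1% of tested genes had a knockout library at 0, and 453 genes called lower had no knockout read.

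In the 10 libraries 10352 genes averaged 10 or more and were tested, of which 3169 (30.6%) had an adjusted p under 0.05 in limma (Benjamini-Hochberg) and are here said to be called. A gene that was not called may still differ. In data simulated with the same spread in both groups, 11.9% of 2-fold and 51.6% of 4-fold changes were called in the right direction. Among the called genes, 791 (7.64% of those tested) were higher and 2378 (23%) were lower in the knockout. The median log2 difference of all tested genes was −0.47. It was −1.25 among genes averaging 10 to 50, −0.17 among those averaging 50 to 500 and 0.06 above that level, and 511 of the lower genes had no read in any knockout library. At a mean of 500 or more, 199 genes were higher and 155 lower, out of 563. With library 8 in the fit, 535 genes were higher and 2061 lower out of 10401 (5.14% and 19.8%), and 531 of the 791 and 1936 of the 2378 were still called. The knockout libraries lay above the 6 wild-type libraries for 5.89% of the tested genes and below them for 18.1%. All 4 lay above all 7 wild-type libraries for 362 of the 791 higher genes (45.8%) and below all 7 for 1049 of the 2378 lower genes (44.1%). The split between the directions depended on the scaling: 24.96% of the calls were higher here, against 50.3% after quantile rescaling (1584 higher, 1563 lower and 30.4% called in all; the median moved by 0.56 to 0.09) and 36.4% with edgeR's quasi-likelihood test on the recovered reads (823 and 1439, or 7.95% and 13.9% of those tested).

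**Figure D1:**
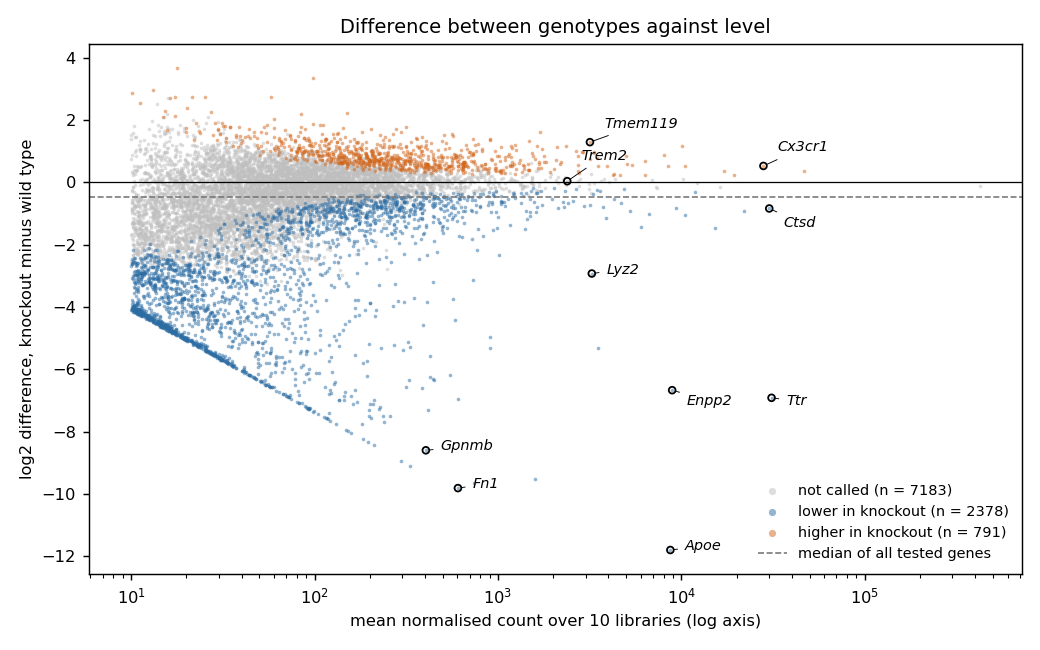
Log2 difference, knockout minus wild type, against the mean normalised count over the 10 libraries (log axis) for each tested gene, with 791 genes called higher and 2378 called lower. The straight lower edge is formed by genes with no read in any knockout library, and the dashed line marks the median of −0.47.

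The genes were read in lists of pathways and cell types, and each list's calls stand beside the 7.64% higher and 23% lower of all tested genes. These shares depended on level. At means of 10 to 50, 50 to 500 and 500 or more, 1.07%, 10.6% and 35.3% were higher, and 27.3%, 18.6% and 27.5% lower. A list of abundant genes is therefore better set beside the shares at its own level. Where called, homeostatic genes were mostly higher (24 higher, 2 lower), as were those of Fc receptor signalling (10 and 0) and tetraspanins (10 and 4). Disease-associated genes (3 higher, 31 lower), oxidative phosphorylation genes (1 and 40) and cholesterol synthesis genes (0 and 12) were mostly lower, and lysosomal genes were called in both directions (13 and 15).

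**Figure D2:**
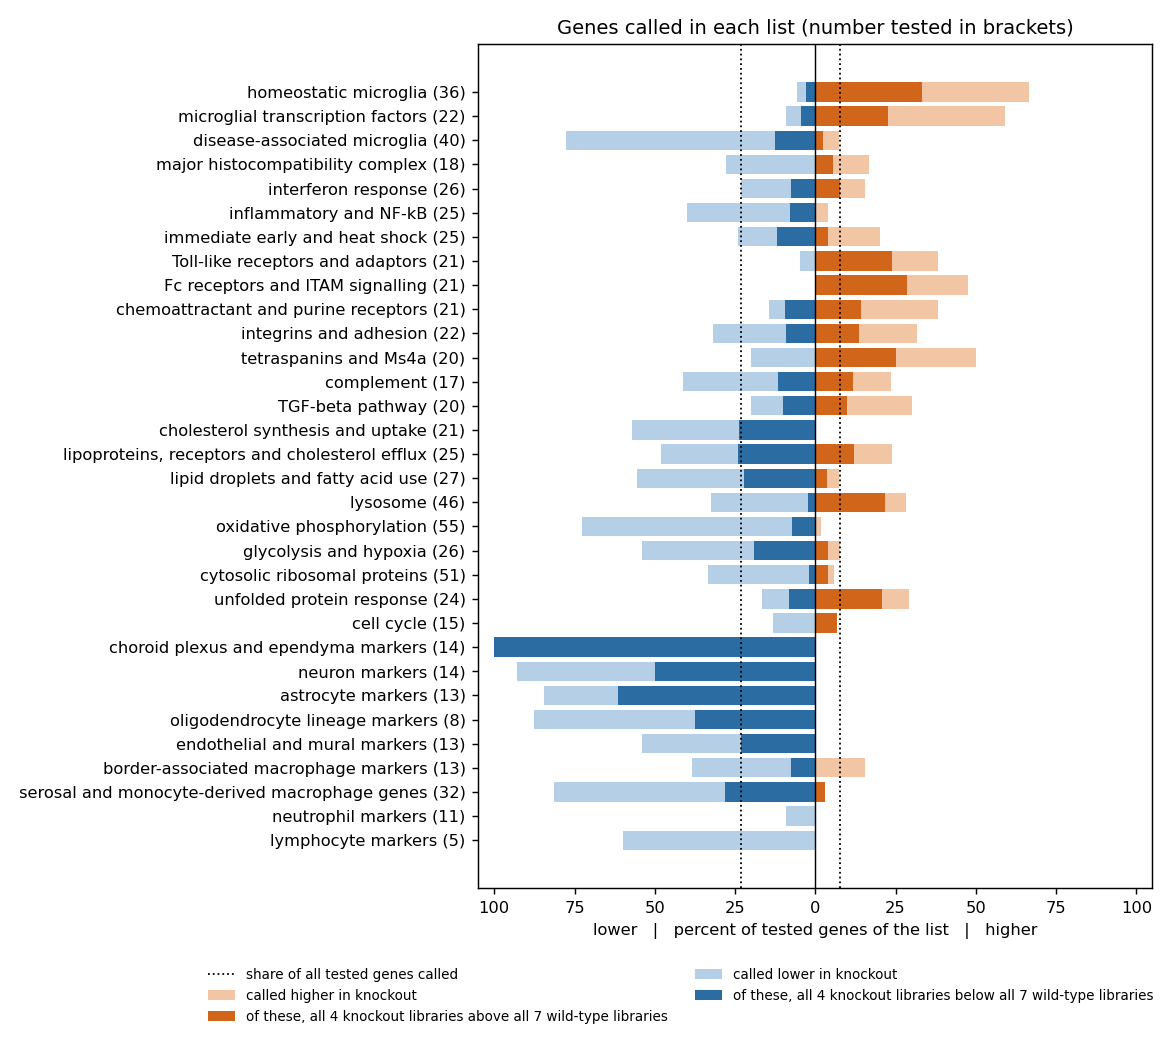
Percent of the tested genes of each list called higher (right) or lower (left) in the knockout, with dark bars for those whose 4 knockout libraries lay outside all 7 wild-type libraries, number 8 included. The dotted lines mark the 7.64% and 23% of all tested genes; 12 of the 24 higher homeostatic genes but 5 of the 31 lower disease-associated genes have dark bars.

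RNA of several cell types other than microglia was far lower in the knockout libraries. All 14 tested markers of the choroid plexus, the epithelium that makes cerebrospinal fluid, and of the ciliated ependyma were lower, with a median log2 difference of −6.85. Their summed level was 58663 to 85122 in the 6 wild-type libraries, 456 to 910.4 in the knockout libraries and 24429 in library 8. Ttr, the thyroid hormone carrier of that epithelium, was at 42350.0, 48487 and 64163 in the wild-type libraries and at 629, 559.8, 352 and 248 in the knockout libraries. Enpp2, which encodes the enzyme autotaxin, went from 12146, 14629.6 and 17068 to 198, 111, 109.8 and 170.2, a log2 difference of −6.67 with an SE of 0.17 and a limma adjusted p of 3.36e-10. For both genes the groups lay far apart, and library 8 was between them at 16089.9 for Ttr and 6704 for Enpp2. The folate receptor Folr1 and the secreted inhibitor Sostdc1 had no read in any knockout library, at least 987-fold and 916-fold lower by a bound of 3 reads over the group. That bound covers the sampling of reads only, and not the further zeros among knockout libraries, so the true folds may be smaller.

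Markers of neurons, astrocytes and oligodendrocytes took the same direction. Of the tested members, 13 of 14 neuronal, 11 of 13 astrocyte and 7 of 8 oligodendrocyte markers were lower and none was higher (12, 12 and 5 with library 8). edgeR called 6 of the astrocyte markers lower, and 4 of the oligodendrocyte markers were lower after quantile rescaling. Summed levels were 1248 to 1637 against 0 to 155 for neurons, 3797 to 4179 against 707.8 to 1243 for astrocytes and 1093 to 1343 against 92.5 to 282.4 for oligodendrocytes. Map2, a protein of dendritic microtubules, was at 153, 189 and 275 in the wild-type group, at 0 in the knockout group and at 5.42 in library 8. Library 8 thus lay near the knockout libraries for neuronal RNA (sum 122.8) and between the groups for astrocyte RNA (sum 2156). Of markers of vessels 7 of 13 were lower (5 with library 8, 3 in edgeR), and 1 was higher without knockout library 3. Of lymphocyte markers 3 of 5 were lower (2 with library 8), among them Ms4a1, the B cell antigen CD20, at 25.4–95.4 in the wild-type group and at 0 in the knockout libraries and library 8. In bulk samples, fewer cells of a type and less RNA per cell cannot be told apart.

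A list of genes of serosal and monocyte-derived macrophages was also lower, with 26 of 32 tested members called lower and 1 higher (23 and 1 with library 8) and a median log2 difference of −5.24, or −3.49 after quantile rescaling. Without knockout library 3 there were 2 higher. Fn1, fibronectin, was at 928, 1000.3 and 1100.3 in the wild-type libraries, 0.568, 0, 0 and 0 in the knockout libraries and 16.2 in library 8. Alox15, a lipoxygenase of resident peritoneal macrophages, was at 458, 553 and 669.9 in the wild-type group and at 0 in the knockout libraries and library 8. Neither gene had a knockout library anywhere near the wild-type range. Prg4 and Vsig4, 2 further genes of that macrophage type, had no read in the knockout libraries and stood at 1.81 and 5.42 in library 8, against 214 to 333 and 64.3 to 116 in the others. Saa3, an acute phase protein, was at 1027, 1199 and 1482 in the wild-type group and at 0, 0, 0 and 4.43 in the knockout group. The sum of the list was 7897 to 10009.6 in the wild-type libraries, 1865 to 2489 in the knockout libraries and 1908 in library 8, and for 22 of its 27 called genes library 8 was nearer to the knockout mean. Of 13 tested markers of macrophages at the brain's borders 5 were lower and 2 higher (3 and 1 with library 8, and 2 lower in edgeR). Pf4, a chemokine of those cells, was at 349, 396 and 443 against 11.9, 0, 0 and 0, while Stab1, a scavenger receptor, rose from 232–317 to 468–618, with library 8 above both groups at 623. The other higher gene was Maf, also listed among the transcription factors of microglia. Maf made up most of the list's sum, which was 3025 to 3381 in the wild-type and 4269 to 4762 in the knockout libraries. Of 11 tested neutrophil markers 1 was lower and none higher, as with library 8, but these counts rested on single libraries. Without knockout library 2 they were 2 lower and 4 higher, without knockout library 3 there were 2 lower and without knockout library 4 there were 3. edgeR called 2 higher and none lower. The granule protein S100a8 was at 996, 1210.1 and 1382 against 1642, 921, 2230.2 and 3167, with overlapping groups and a limma adjusted p of 0.0983. Library 8 was far lower, at 79.4.

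**Figure D3:**
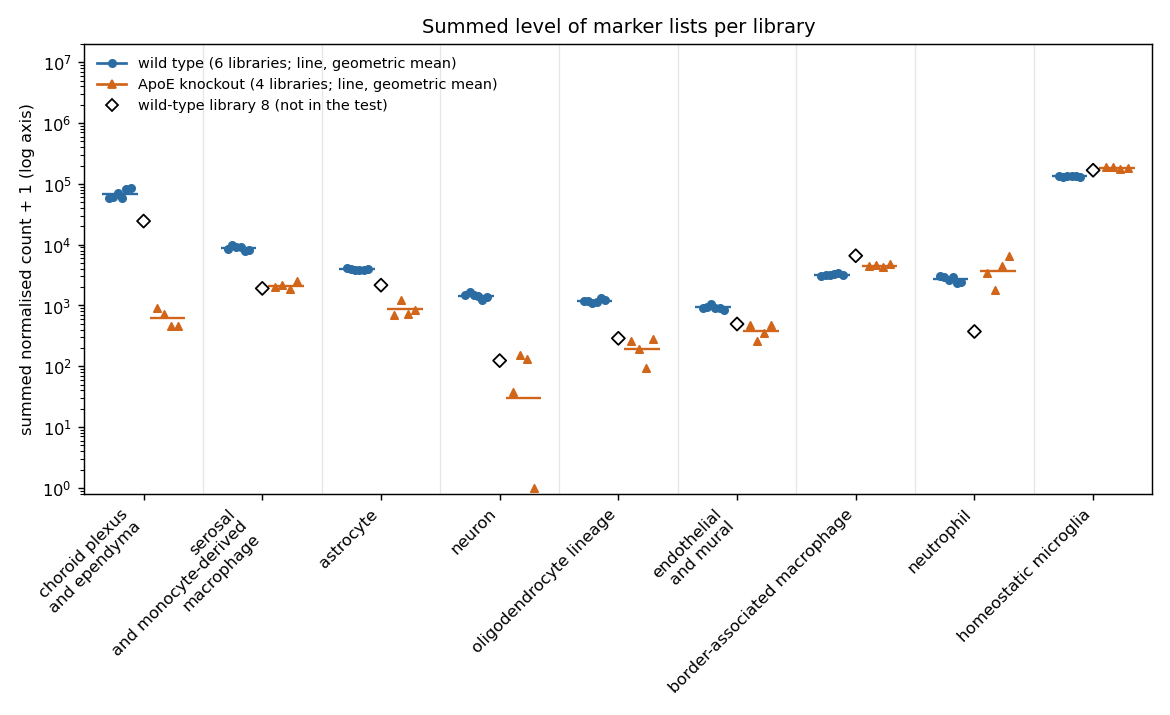
Summed normalised count + 1 (log axis) of 8 marker lists of other cells and of the homeostatic list, for each of the 6 wild-type and 4 knockout libraries and library 8. Maf, also listed among the transcription factors of microglia, makes up most of the border-associated macrophage sum. Choroid plexus RNA is 58663 to 85122 in the wild-type and 456 to 910.4 in the knockout libraries, with library 8 at 24429; for serosal macrophage genes library 8 lies within the knockout range.

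Genes of undisturbed microglia were higher in the knockout libraries, and the defining markers of the labelled cell type were abundant in all 11. Of 36 tested members of the homeostatic list 24 were higher and 2 lower, with a median log2 difference of 0.51 (18 and 1 with library 8). The summed level was 129237 to 136810 in the wild-type group, 174992 to 192085 in the knockout group and 167691 in library 8. The list's genes include abundant ones, for which the median of all genes was near 0, and its markers moved together with the lower RNA of other cells. The part of that lower RNA (choroid plexus sum 58663 to 85122 against 456 to 910.4) in this rise was not tested.

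Tmem119, a microglial membrane protein (chromosome 5, 113793729 to 113800516, minus strand), was at 1801, 1996 and 2249.7 in the wild-type libraries and at 5288, 4315, 5208 and 4847 in the knockout libraries. All knockout libraries lay above all wild-type libraries, library 8 at 2618 included, and the log2 difference was 1.29 (SE 0.08, limma adjusted p = 3.85e-07; 1.18e-05 with library 8). Slco2b1, an organic anion transporter, was at 1847, 2085 and 2202 in the wild-type group and 3883, 4487, 3679 and 4201 in the knockout group, a rise of 0.98 (SE 0.08). The tetraspanin Cd81 stood at 1562, 1900.3 and 2199 and 3653, 3925, 3836 and 3675, 1.99-fold higher, and its level in library 8 was 1376. For Slco2b1 and Cd81 library 8 lay below the other wild-type libraries, and both were called with it in the fit. Fcrls, a scavenger receptor related to Fc receptors, went from 1966–2297 to 3793–4486 (log2 difference 0.96, SE 0.07), with library 8 at 3022.

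For other genes of the list library 8 stood at or above the knockout level. P2ry12, the ADP receptor that steers microglial processes, was at 1959, 2536 and 2604 in the wild-type and 5074, 4487, 4364 and 4995 in the knockout libraries, but at 5821 in library 8. The groups did not overlap over the 10 libraries, and the call held with library 8 at a limma adjusted p of 0.0214, against 3.91e-06 without it. Cx3cr1, the fractalkine receptor, stood at 22955, 23815 and 24488 and rose to 37774, 34656, 30503 and 34329 (log2 difference 0.52, SE 0.07), with library 8 at 27054 between the groups. In all, library 8 was nearer to the knockout mean for 16 of the 26 called genes of the list.

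The list did not rise as a whole. P2ry13, another ADP receptor and a neighbour of P2ry12 on chromosome 3, fell by 0.37 (SE 0.07, limma adjusted p = 0.00139), from 3194, 3585 and 3966 to 2974, 2738, 2670.2 and 2737, while library 8 held 6575. The groups did not overlap over the 10 libraries, and the neighbouring receptors moved in opposite directions. Serpine2, a protease inhibitor, fell from 2619–3289 to 1750.0–2103, a call that was lost with library 8 (limma adjusted p = 0.101). The growth factor receptor Csf1r, at 7089, 7581 and 8053 against 7754, 6103, 6538 and 6794, the lectin Siglech and the phagocytic kinase Mertk were not called, and their groups overlapped.

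**Figure D4:**
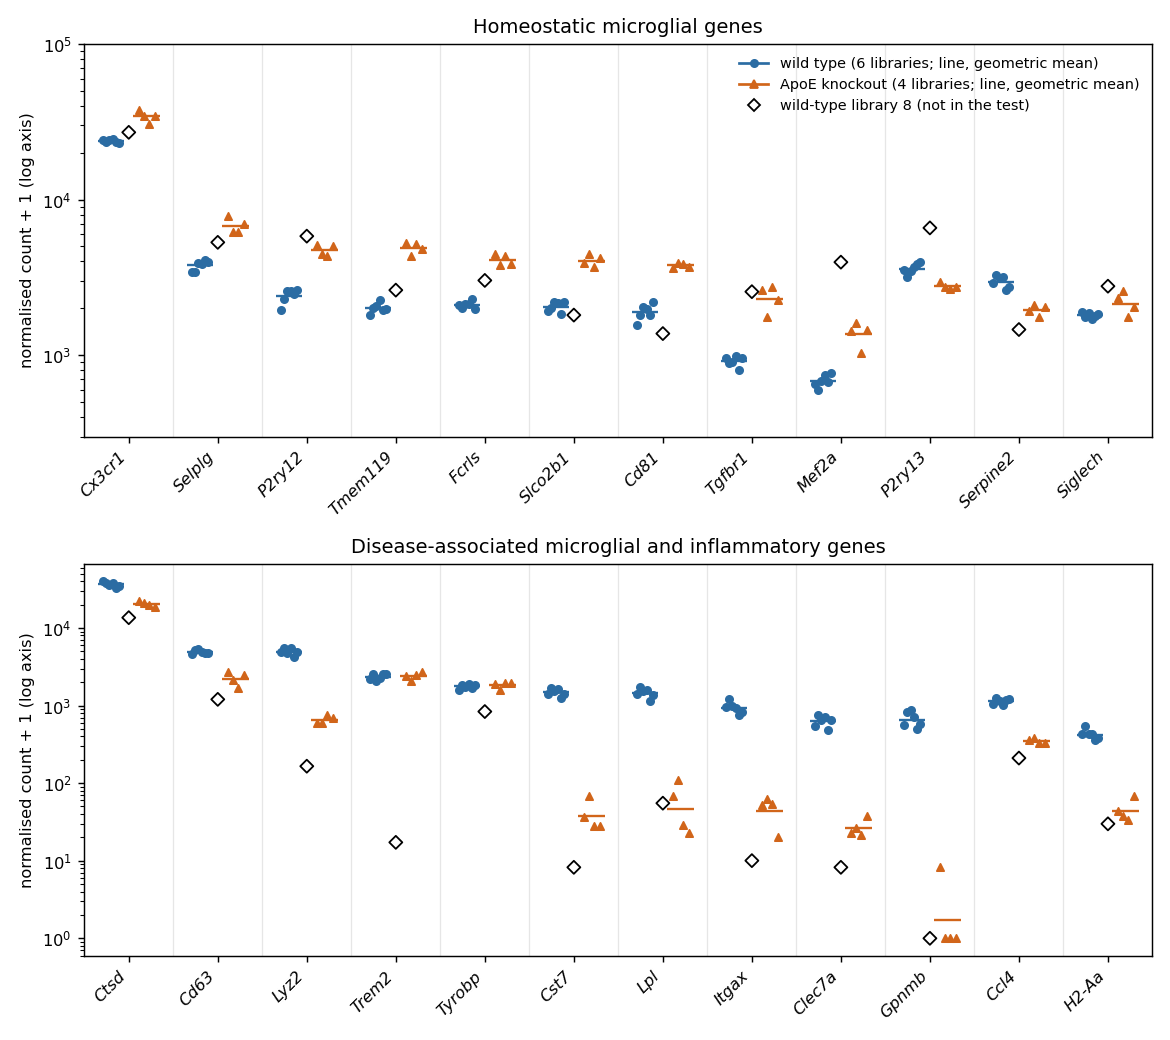
Normalised count + 1 (log axis) per library of 12 homeostatic genes and of 12 disease-associated, inflammatory and antigen presentation genes. Tmem119, Slco2b1 and Cd81 are higher in the knockout than in all 7 wild-type libraries, P2ry12 and Mef2a are as high or higher in library 8, and Trem2 overlaps between the groups while library 8 stands at 16.2.

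Among 22 tested transcription factors of microglia 13 were higher and 2 lower (median 0.48; 8 and 1 with library 8). The lower count was 1 when any one of wild-type libraries 2, 3, 4, 6 and 7 or knockout libraries 1 and 2 was left out, and in edgeR. Irf8, needed for microglial development, was at 1294, 1414 and 1483 in the wild-type and 2392, 2343, 1669 and 2051 in the knockout libraries, and Cebpa, a myeloid factor, at 579.5, 706 and 809.9 and 994, 882, 1058 and 1068. In both the groups stayed apart with library 8, which held 1610.4 and 404. Maf and Mef2a, 2 further macrophage factors, rose from 1911–2197 to 3565–3889.6 and from 593–769 to 1030.4–1608, but library 8 exceeded all knockout libraries at 5660.0 and 3961 and the calls were lost with it (limma adjusted p = 0.0714 and 0.282). Bhlhe40, a repressor linked to the lipid-handling state of macrophages, had no read in the knockout libraries and was at 93.6, 99.2 and 145 in the wild-type group. By the bound of 3 reads it was at least 299.9-fold lower. Its close relative Bhlhe41 rose from 297–374 to 446–585, with a limma adjusted p of 0.00107 that became 0.0567 with library 8.

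Of TGF-beta receptor genes Tgfbr1 and Tgfbr2, which encode the signalling chains, rose, whereas the co-receptor Tgfbr3 and the ligand Tgfb2 fell. Tgfbr1 was at 797, 928 and 984 in the wild-type and 2607, 1746, 2752 and 2249 in the knockout libraries (log2 difference 1.34, SE 0.12), and Tgfbr2 rose from 318–477 to 651–899. Smad3, which passes their signal to the nucleus, rose from 113–192 to 198–347 (limma adjusted p = 0.00223). Library 8 was inside the knockout range for Tgfbr1 (2558), just under it for Tgfbr2 (637) and inside the wild-type range for Smad3 (123). Tgfbr3 fell from 16.9–46.8 to 0–7.95 (limma adjusted p = 0.000402), with library 8 at 9.03. The ligand Tgfb2 was at 357, 399 and 411 and at 21, 0, 0 and 0. Over the whole pathway list 6 of 20 tested genes were higher and 4 lower, and 3 were higher and 4 lower with library 8.

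Where called, genes of the receptor lists were mostly higher. Of 21 tested genes of Fc receptors and ITAM signalling 10 were higher and none lower (9 and 0 with library 8), and for 6 of the 10 the knockout libraries lay above all 7 wild-type libraries. Lyn, a kinase that phosphorylates ITAM and ITIM motifs, was at 805, 875 and 974 against 1959.9, 1690.4, 1777 and 1789, a rise of 1.04 (SE 0.08, limma adjusted p = 9.73e-07). Fcer1g, the common Fc receptor gamma chain, was at 1151, 1365 and 1529 against 2482, 2198, 2398 and 2686, 1.81-fold higher, with library 8 lowest of all at 1016. The phosphatase Inpp5d, which dampens such signals, rose from 517–648 to 947–1379, and library 8 at 1004 lay inside the knockout range. Tyrobp, the partner of Trem2, was not called, at 1602, 1782 and 1901 and 1892, 1579.5, 1964 and 1955.

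Toll-like receptors, which detect microbial and damaged nucleic acids and lipids, included 8 higher genes and 1 lower of 21 tested (7 and 1 with library 8; 2 lower without knockout library 4, none in edgeR). Tlr3 was at 139, 148 and 192 in the wild-type and 399.6, 425, 262 and 380.4 in the knockout libraries, and Tlr4 at 50.3, 71.3 and 94.9 and 238, 236, 186 and 167. Neither overlapped between the groups, and library 8 stood between them at 231 and 144. Unc93b1, the chaperone that brings nucleic acid-sensing receptors to endosomes, rose by 0.84 (SE 0.12), from 1031–1585 to 1915–2253. Of the tetraspanin and Ms4a list 10 of 20 genes were higher and 4 lower, and 9 were higher and 1 lower with library 8. Cd53, a leukocyte tetraspanin, was at 466, 531 and 621 against 1349, 1503, 1314 and 1633, 2.65-fold higher, and library 8 held the lowest level of the 11 at 433. Ifngr1, the interferon gamma receptor chain, was 3.04-fold higher at 2297 to 3079 against 824 to 1180.0, with library 8 at 1497.

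Genes of the disease-associated state were mostly lower where called. Of 40 tested members 31 were lower and 3 higher, with a median log2 difference of −1.55. Without knockout library 1 or without knockout library 4 only 1 was higher. With library 8 in the fit 19 were lower and none higher, and for 28 of the 34 called genes library 8 was nearer to the knockout mean than to that of its own group. The summed level was 98424 to 116790 in the wild-type libraries, 53457 to 59214 in the knockout libraries and 30459 in library 8. The sum of the serosal and monocyte-derived macrophage list moved with it. That sum was 7897 to 10009.6 in the wild-type libraries, 1865 to 2489 in the knockout libraries and 1908 in library 8. The macrophage list also holds Lpl, described below with the disease-associated genes, so the sets are not fully separate. The part of RNA of such macrophages in this fall was not tested.

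Secreted and surface proteins were among the decreases. Lyz2, the macrophage lysozyme, was at 4192, 4945 and 5545 in the wild-type and 587, 589, 756 and 685 in the knockout libraries, 7.61-fold lower (log2 difference −2.93, SE 0.10, limma adjusted p = 2.54e-09). Cst7, an inhibitor of cathepsins, was at 1232, 1478 and 1672 against 35.2, 68.1, 26.8 and 27, and Clec7a, a receptor for beta-glucan, at 482, 652 and 760.4 against 21.6, 25.4, 20.7 and 36.8. Each of these groups lay far apart, and library 8 was lower than every knockout library at 164, 7.22 and 7.22. The adjusted p of the 3 genes rose to 0.0462, 0.0167 and 0.0139 when library 8 was put back. Itgax, the integrin CD11c, fell by 4.42 (SE 0.27) and the membrane glycoprotein Gpnmb by 8.60 (SE 0.56), the latter from 502, 639.8 and 862 to 7.38, 0, 0 and 0. Lpl, lipoprotein lipase, was at 1152, 1476 and 1748 against 66.4, 107, 28.1 and 21.7, and library 8 at 54.2 lay within the knockout range.

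The receptor Trem2 itself was not called. It was at 2044, 2412 and 2547 in the wild-type and 2376, 2089, 2493 and 2731 in the knockout libraries, overlapping, with a log2 difference of 0.04 (SE 0.09). In library 8 it was at 16.2, below all 10. The abundant scavenger receptor Cd68 and the ferritin heavy chain Fth1 were not called either, at 1079 to 1425 against 1352 to 1521 and 2011 to 2499.9 against 2245 to 2578, though copies of Fth1 make its count uncertain. The 3 members called higher were Ctsl, Cd9 and B2m. Cd9 overlapped between the groups, and its call was lost without wild-type library 1 or 3 or knockout library 1 or 4 (highest limma adjusted p = 0.0732). For Ctsl, cathepsin L, the knockout libraries at 2251, 2578, 2285 and 2429 lay above the wild-type libraries at 1598 to 1876 and library 8 at 735.

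Inflammatory genes were mostly lower where called, while the MHC list was called in both directions. Of 25 tested inflammatory genes 10 were lower and 1 higher (6 and 1 with library 8, and 6 lower in edgeR), and 2 were higher when wild-type library 7 or knockout library 1, 2 or 4 was left out. Of 18 tested genes of the MHC list 5 were lower and 3 higher (3 and 2 with library 8), so that the share lower was 27.8% beside 23% of all tested genes. Ccl4, a chemokine, was at 1018, 1169 and 1265 in the wild-type and 364, 376, 329 and 326 in the knockout libraries (log2 difference −1.71, SE 0.09), with library 8 lower still at 209. Its relative Ccl3 fell from 485–877 to 156–365 (limma adjusted p = 0.00115, and 0.0928 with library 8). The MHC class II gene H2-Aa was at 354, 425 and 546 against 43.1, 36.5, 32.4 and 66.9, 9.52-fold lower, and H2-Eb1 at 330.3, 390.2 and 456 against 53.4, 90.8, 53.6 and 68.7. These groups did not overlap, and library 8 was lower than all knockout libraries at 28.9 and 25.3. In the class I pathway the calls differed in direction, with H2-D1 lower at 688 to 1279 against 1616 to 2093 (not with library 8, limma adjusted p = 0.135) and the immunoproteasome subunit Psmb9 higher at 145 to 196 against 55.4 to 121.

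Complement genes were called in both directions. C1qc, a chain of the recognition molecule C1q made by microglia, was at 4867, 5014 and 5492 and 8753, 8322, 7366 and 8089.9 (log2 difference 0.67, SE 0.06), above all 7 wild-type libraries, with library 8 at 4808. C1qb rose by 0.25 (SE 0.06), a call that was lost with library 8 (limma adjusted p = 0.146). C4b, the next component of the cascade, was at 396, 468 and 653 against 15.9, 53.9, 0 and 18.6, and the properdin gene Cfp at 179, 211 and 237 against 0, 0, 0 and 30.6. Of 17 tested genes of the list 4 were higher and 7 lower, but 1 was higher and 7 lower with library 8. Interferon response genes were called in both directions, 4 higher and 6 lower of 26 tested (3 and 4 with library 8). Quantile rescaling gave 8 higher genes and edgeR 3 lower ones. The sign of the list's median depended on the scaling (−0.50 in the values as deposited, 0.44 after quantile rescaling, 0.15 in edgeR), and leaving out 1 library gave −0.95 (knockout library 4) to −0.15 (wild-type library 3).

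The cholesterol exporters Abca1 and Abcg1 rose, whereas genes of cholesterol synthesis and uptake were lower where called. Abca1, the transporter that loads cholesterol onto apolipoproteins such as ApoE (chromosome 4, 53030787 to 53159895, minus strand), was at 233, 285 and 339 in the wild-type and 956, 938, 618 and 835 in the knockout libraries. The groups did not overlap and the log2 difference was 1.53 (SE 0.14, limma adjusted p = 3.97e-06), but library 8 at 771 lay within the knockout range. Abcg1, the other exporter (chromosome 17, 31057675 to 31117988, plus strand), was at 144, 166 and 208 against 366, 374, 345 and 432, 2.23-fold higher, and library 8 at 173 lay with the other wild-type libraries. Mylip, which encodes a ubiquitin ligase that acts on lipoprotein receptors, rose by 1.19 (SE 0.14), with library 8 above all others at 1025 and the call lost with it (limma adjusted p = 0.064). These 3 genes are among the known targets of the sterol sensor LXR. No full list of its targets was read, and its activity was not tested. Npc1 and Lipa, which release cholesterol from lysosomes, rose by 0.50 (SE 0.11) and 0.68 (SE 0.16), and for both the knockout libraries lay above all 7 wild-type libraries.

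Srebf2, the master activator of cholesterol synthesis, was at 99.99, 127 and 138 against 44.3, 5.79, 0 and 20.8. The groups did not overlap, the limma adjusted p was 0.00427, and library 8 was within the knockout range at 37.9. Of 21 tested genes of cholesterol synthesis and uptake 12 were lower and none higher (10 and 0 with library 8), with a median of −2.17. That median rested partly on knockout library 3, without which it was −1.33, and it was −1.44 in edgeR, −1.41 with a pseudocount of 5 and −0.72 after quantile rescaling. Of the 12, 10 lay under a mean of 100. Hmgcs1, the most abundant of the called enzymes besides Ebp, was at 261, 293 and 305 against 66.4, 204, 239.9 and 134. Its call was lost without knockout library 4 (limma adjusted p = 0.0501). Of this list, edgeR's quasi-likelihood test called 6 genes lower, and quantile rescaling gave 7 lower and 1 higher. Leaving out any 1 wild-type library gave 9 lower. The large receptor Lrp1, which clears ApoE particles, was not called at 1432, 1468 and 1712 and 1520.0, 1763, 1087 and 1751, while the ApoE receptors Lrp8 and Vldlr had no read in any knockout library against 18.1 to 48.3 and 12.1 to 53.1. Of the 1269 genes called lower at means of 10 to 50, 453 likewise had no knockout read.

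Genes of fatty acid uptake and storage were lower in 15 of 27 tested members and higher in 2 (13 and 2 with library 8), with a median of −1.21. edgeR called 9 lower, and the median was −0.74 after quantile rescaling. The higher count was 1 when any one of wild-type libraries 1, 3, 4, 6 and 7 or knockout libraries 2 and 3 was left out. Fabp3, a fatty acid carrier, had no read in the knockout libraries and was at 111, 131 and 165 in the wild-type group. By the bound of 3 reads it was at least 387-fold lower. Scd2, a desaturase, fell by 1.87 (SE 0.20), from 569, 618 and 717 to 135, 298, 138 and 149, and Plin2, the coat protein of lipid droplets, from 178–279 to 3.46–80.7. Library 8 stood between the groups for Fabp3 and Scd2 at 10.8 and 343, and within the knockout range for Plin2 at 41.5. Acsl4, which activates polyunsaturated fatty acids, was higher at 307 to 461 against 232 to 288.

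**Figure D5:**
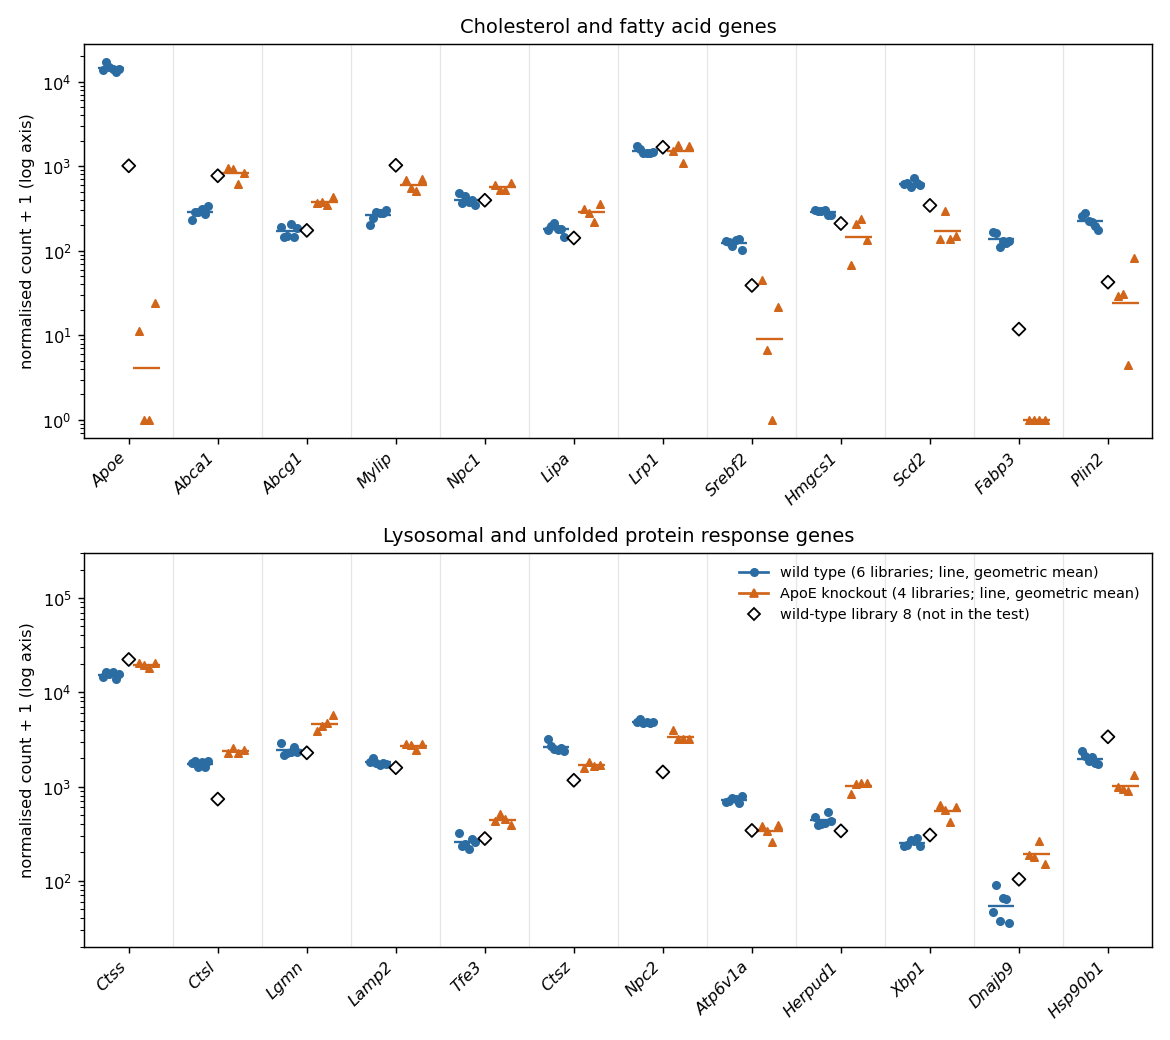
Normalised count + 1 (log axis) per library of 12 genes of cholesterol and fatty acid handling and of 12 lysosomal and unfolded protein response genes. Abcg1, Lgmn, Lamp2, Herpud1 and Xbp1 are higher in all 4 knockout libraries than in all 7 wild-type libraries, whereas Npc2 and Ctsz are lowest in library 8.

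Lysosomal genes were called in both directions, 13 higher and 15 lower of 46 tested, with a median of −0.18 (−0.04 with library 8 and −0.10 without knockout library 3). For 10 of the 13 higher genes, but 1 of the 15 lower ones, the knockout libraries stood outside all 7 wild-type libraries, and with library 8 in the fit 11 were higher and 4 lower. Lgmn, the asparagine endopeptidase legumain, was at 2146, 2325 and 2919 in the wild-type and 3874, 4389, 4712 and 5676 in the knockout libraries (log2 difference 0.93, SE 0.11), with library 8 at 2278. Lamp2, a membrane protein of the lysosome, rose from 1709–2007 to 2428–2847, and Tfe3, a factor that switches on lysosomal genes, from 215–318 to 391–509. The cysteine cathepsin Ctss, among the most abundant RNAs, was at 13723, 15566 and 16305 against 20254, 19246, 18211 and 20415, but library 8 exceeded both groups at 22257 and the call was lost with it (limma adjusted p = 0.225).

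Ctsd, the aspartic protease cathepsin D (chromosome 7, 142375911 to 142388038, minus strand), was at 33013, 36865 and 39772 in the wild-type and 22171, 20890.0, 19894 and 18797 in the knockout libraries, 1.79-fold lower. Library 8 held 13571, under all of them, and the limma adjusted p went from 2.31e-06 to 0.0992 with it. Cd63, a tetraspanin of late endosomes, behaved likewise at 4679.8, 4851 and 5402 against 2702, 2120.1, 1683 and 2501 and 1201. Npc2, which hands cholesterol to Npc1, fell by 0.52 (SE 0.07), from 4664–5229 to 3189–3991, although its partner Npc1 rose, and was not called with library 8 (limma adjusted p = 0.524). Ctsa, a protective carboxypeptidase, and Atp6v1a, the catalytic subunit of the proton pump, were lower at 1385 to 1657 against 1985 to 2755 and 255 to 389.7 against 666 to 798, of which Ctsa was not called with library 8 (limma adjusted p = 0.184).

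The promoters of lysosomal genes were searched for TCACGTGA, the core of the CLEAR element that TFEB and TFE3 bind, a palindrome that holds the E-box CACGTG. Windows were the 250 bases before RefSeq starts (GRCm38.p6), and a match was counted on either strand. It was found in 0.793% of 32536 windows of all genes. That share counts windows, whereas a gene of the list was counted if any of its windows held the match. Of 39 lysosomal genes with a window, 5 held it, namely the lower genes Ctsd, Ctsa, Atp6v1a and Gla and Mcoln1, which was not called. None of the 9 higher genes with a window did. For Ctsd (chr7:142387908-142387937, minus strand) and Ctsa (chr2:164833743-164833772, plus strand), both of which fell, the 30 bases around the match are given 5′ to 3′ on the gene's strand, with the match in capitals. Both stretches lie inside the gene as GENCODE annotates it, before RefSeq starts downstream of its 5′ end. A second window of Ctsa, ahead of that 5′ end, held no match.
Ctsd: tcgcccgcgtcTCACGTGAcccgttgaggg
Ctsa: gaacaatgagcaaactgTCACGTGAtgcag
The match is a description of the letters in these windows and shows neither binding nor a cause.

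Listed genes of the mitochondrial respiratory chain were mostly lower. Of 55 tested genes 40 were lower and 1 higher, with a median log2 difference of −1.02. Cox6c, a subunit of cytochrome oxidase, was at 984, 1299.8 and 1429 in the wild-type and 472, 411, 537 and 339 in the knockout libraries (log2 difference −1.54, SE 0.13, limma adjusted p = 2.56e-06). Ndufb8 of complex I was 2.09-fold lower at 303 to 359 against 574 to 770.1. Library 8 lay in or just below the knockout range at 348 and 302. It was nearer to the knockout mean for 37 of the 41 called genes, and 25 were lower with it in the fit. The exception within the list was Ndufc2 of complex I, higher at 417 to 560.2 against 274 to 467 with overlapping groups. Without knockout library 2 that call was lost (limma adjusted p = 0.0503). The list did not cover every gene of the chain. Outside it, the complex I gene mt-Nd3 was among the largest rises of all tested genes with groups apart.

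Glycolysis and hypoxia genes were lower in 14 of 26 and higher in 2 (11 and 2 with library 8). Pkm, pyruvate kinase, was at 651, 709.6 and 769 against 273, 201, 282 and 273, and library 8 at 316 was just above the knockout range. Hif1a, the hypoxia factor, fell from 573–803 to 147–398, while the hexokinase Hk2 rose from 692–797 to 1099.9–1267 with library 8 above both groups at 1441. Cytosolic ribosomal protein genes had 17 lower and 3 higher of 51 tested, beside 23% and 7.64% of all genes. At a mean of 500 or more those shares were 27.5% and 35.3%, and the list's wild-type sum was 62118 to 70142. With library 8 in the fit, the list had 2 lower and 1 higher. Without knockout library 2 there were 5 higher. Rps14 fell by 0.66 (SE 0.08; limma adjusted p = 0.234 with library 8) and Rplp1 rose by 0.56 (SE 0.08), and their many pseudogene copies make such counts uncertain.

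Genes of the unfolded protein response, by which cells adjust the folding capacity of the endoplasmic reticulum, rose and fell within the list. Of 24 tested members 7 were higher and 4 lower (4 and 2 with library 8), and for 5 of the 7 the knockout libraries lay above all 7 wild-type libraries. Leaving out 1 library at a time gave 5 to 6 higher and 2 to 6 lower. The lower count was 2 without wild-type library 1 or 3, and in edgeR. Herpud1, which serves the removal of misfolded proteins (chromosome 8, 94386438 to 94395377, plus strand), was at 391, 420.1 and 538 in the wild-type and 836, 1069, 1094 and 1079 in the knockout libraries (log2 difference 1.21, SE 0.12, limma adjusted p = 5.23e-06). Xbp1, the factor activated by splicing under folding stress, was at 232, 251 and 282 against 628, 558, 419 and 606, 2.19-fold higher. Dnajb9, a co-chaperone, was 3.49-fold higher at 150.3 to 262 against 34.7 to 89.3. In these 3 genes library 8 lay below every knockout library, at 338, 305 and 103.

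The chaperone Hsp90b1 moved the other way, from 1741, 1974 and 2376 to 982, 935, 896 and 1320.2 (log2 difference −0.96, SE 0.12), with library 8 highest at 3367. The disulfide isomerase Pdia6 rose by 0.38 (SE 0.08), from 769–1004 to 1103–1195. Hspa5, the main chaperone of the compartment, was called lower by 0.22 (SE 0.07) with overlapping groups, at 4616 to 5601 and 4112 to 4773. That call was lost when any of wild-type libraries 1, 2, 3, 4 or 7 or knockout libraries 2 or 4 was left out (highest limma adjusted p = 0.0672), with library 8 (0.141), and in edgeR.

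The promoters of the list were searched for a pair of known elements of this response. The endoplasmic reticulum stress element (ERSE) was read as CCAAT, 9 bases of any kind and CCACG. It occurred on either strand in 0.114% of the 32536 windows. Of the 21 genes of the list that had a window, 8 held it in any of their windows. Among these 8 were Pdia6, called higher, and Hsp90b1, Hspa5 and Dnajc3, called lower. The call of Dnajc3, like that of Hspa5, had overlapping groups and was lost with library 8 (limma adjusted p = 0.0522) and in edgeR. The related ERSE-II, read as ATTGG, 1 base of any kind and CCACG, occurred in 0.0307% of windows and in 1 gene of the list, Herpud1. The window of Herpud1 also ends in CCAAT, 9 bases and CCAC, all but the last letter of an ERSE. The base after it was not searched, so Herpud1 is not among the 8. Stretches of 2 higher and 2 lower genes follow 5′ to 3′ on the gene's strand with matches in capitals, to show the element beside both directions. They lie at chr8:94386179-94386428, plus strand (Herpud1), chr12:17266339-17266544, plus strand (Pdia6), chr10:86705510-86705694, minus strand (Hsp90b1) and chr2:34772020-34772049, plus strand (Hspa5), and bases inside the annotated gene were left out except for the 30 around the match of Hspa5.
Herpud1: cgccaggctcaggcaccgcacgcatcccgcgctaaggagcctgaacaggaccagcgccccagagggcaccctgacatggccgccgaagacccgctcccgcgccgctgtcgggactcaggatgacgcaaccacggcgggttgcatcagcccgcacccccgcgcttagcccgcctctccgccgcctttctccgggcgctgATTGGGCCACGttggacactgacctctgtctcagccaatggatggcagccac
Pdia6: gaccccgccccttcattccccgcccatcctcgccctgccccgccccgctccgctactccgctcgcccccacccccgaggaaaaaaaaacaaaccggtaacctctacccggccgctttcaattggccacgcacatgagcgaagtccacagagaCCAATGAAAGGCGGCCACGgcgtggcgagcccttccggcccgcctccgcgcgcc
Hsp90b1: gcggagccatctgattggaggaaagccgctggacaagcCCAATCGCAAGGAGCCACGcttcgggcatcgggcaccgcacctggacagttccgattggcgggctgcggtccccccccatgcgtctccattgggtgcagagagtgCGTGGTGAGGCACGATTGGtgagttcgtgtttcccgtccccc
Hspa5: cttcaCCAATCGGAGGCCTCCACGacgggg
Hsp90b1 has 2 matches, of which the second in the printed order is on the opposite strand. These matches are descriptions and show neither binding nor a cause.

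Stress-induced genes outside that response were called in both directions, 5 higher and 6 lower of 25 immediate early and heat shock genes. With library 8 they were 2 and 4, and the 5 became 3 when any one of wild-type libraries 1 to 4 was left out and 2 without knockout library 1. Atf3, a factor induced by stress, was at 653, 743 and 811 in the wild-type and 348, 386, 387 and 299 in the knockout libraries, and Hsph1, a heat shock protein, fell from 153–228 to 34.6–147. Library 8 was the highest of all for both, at 1125 and 1099.5. The chaperone Hspa8 rose from 421–645 to 877–1065, with library 8 inside the knockout range at 984, and the antiproliferative gene Btg2 from 330.0–474 to 573–645, with library 8 inside the wild-type range at 453.

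Receptors for chemoattractants and purines included 8 higher and 3 lower of 21 genes (7 and 3 with library 8; 5 lower without knockout library 4). Integrins and adhesion molecules included 7 higher and 7 lower of 22, but 4 higher and 7 lower with library 8. Ptafr, the receptor of platelet-activating factor, was at 222, 286 and 319 against 604, 594, 853 and 602, and library 8 at 359 lay below every knockout library. Selplg, the selectin ligand and a homeostatic marker, was at 3441, 3888 and 4081 against 7799, 6167, 6175 and 6945, with library 8 between the groups at 5309.8. The adhesion molecules Icam2 and Vcam1 fell, from 154–242 to 0–8.91 and from 157–266 to 53.6–98.4, and library 8 stood with the knockout libraries at 0 and 66.8. Of 15 cell cycle genes 1 was higher and 2 lower (0 and 1 with library 8), and 1 was lower when any one of the 6 wild-type libraries was left out and in edgeR.

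Among abundant genes outside the lists 2 regulators of the cytoskeleton rose. Marcks, which binds actin and phospholipid, was at 5800.3, 5961 and 6222 in the wild-type and 10922, 10765, 11569 and 10967 in the knockout libraries, a rise of 0.88 (SE 0.05, limma adjusted p = 2.88e-07), with library 8 at 7352 below every knockout library. Ssh2, a phosphatase that activates cofilin, rose by 1.17 (SE 0.07), but library 8 exceeded both groups at 3654. Among the steepest rises of low genes were Rnu11, an RNA of the minor spliceosome, at 243, 319, 89 and 212 against 8.45, 21.3 and 28.8, and Igtp, an interferon-inducible GTPase, at 289, 226, 114 and 138 against 33.9, 50.1 and 61.6. The sphingosine 1-phosphate receptor S1pr2 rose from 11.2–16.8 to 30.6–88.2 and the adaptor Traf5 from 32.4–66 to 152–199. For Rnu11, Igtp and S1pr2 the knockout libraries lay above all 7 wild-type libraries, and for Traf5 library 8 came closest at 134.

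Of the steepest falls besides Apoe and those above, Gda, guanine deaminase, was at 425, 501 and 519 in the wild-type group and at 0 in the knockout group, at least 1386-fold lower. Lrrc17, a secreted leucine-rich repeat protein, was at 5337, 5659 and 6393 against 116, 169.7, 269 and 78, 36.4-fold lower. In library 8 both were near the knockout level, at 9.03 and 202. Cgnl1, a protein of epithelial junctions, and Atp2b3, a calcium pump, had no read in the knockout libraries against 241 to 381 and 189 to 282, and library 8 held 135 and 188.

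Some calls depended on leaving library 8 out. Of genes with a mean of at least 100, the strongest calls lost with it were Ccl6, Maf, Ctsd, Hint1, Cd63, Timp2, Hbb-bs and Bmp2k. Ccl6, a chemokine, was at 1134, 1329.9 and 1499 against 459, 510.3, 414 and 532 and at 233 in library 8, which turned a limma adjusted p of 1.18e-06 into 0.0604. The beta globin gene Hbb-bs, a mark of blood, was at 1377, 1426 and 1762 against 137, 312, 408 and 418 and 52.4, so that library 8 again lay beyond the knockout libraries. Bmp2k, a kinase, stood at 656 to 959 against 265 to 398, with 1323 in library 8. In the other direction, 4 genes were called higher and 125 lower only with library 8 in the fit. Sgip1, a gene of endocytosis, was among them and had not been tested without library 8 because its mean fell under 10.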

How the data were processed

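Microglial RNA was read as tags from transcript 3′ ends, per the labels' protocols. The deposited table holds 11 libraries of gene counts that the authors normalised by a library-wide factor, so its signal values are not raw counts. The submitters' processing notes name GRCm38.p3, R 3.2.3, HTSeq, Picard 1.8.4 and DESeq2 without saying what each did. Dividing by the smallest step of each library gave whole reads for 100% of values within 0.01 steps. Of 18221 entries, 22 named by spreadsheet dates (0.0966% of the summed values) and 120 at 0 in all libraries were left out, and 18079 were kept.

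Differences were fitted with limma 3.58.1 (R 4.3.3; trended eBayes, Benjamini-Hochberg adjustment over all tested genes) on log2(normalised count + 1) for genes averaging at least 10, and called at an adjusted p under 0.05. For low genes such differences depend on the pseudocount and on libraries at 0. The median over all tested genes was −0.47 here, −0.34 with a pseudocount of 5, −0.16 in DESeq2 and −0.135 in edgeR. edgeR 4.0.16 and DESeq2 1.42.0 on recovered reads, other scalings, filters, a pseudocount of 5, equal depth, a replicate block and leave-one-out fits were tried. The fit was tested on simulated data of this comparison (9941 genes), where 11.9% of 59 genes changed 2-fold, 51.6% of 64 changed 4-fold and 71.9% of 64 changed 8-fold were called the right way, with 8 false calls. The simulation gave each gene the same spread between libraries in both groups. In the data the median SD of log2 values was 0.82 in the knockout and 0.34 in the wild-type group. The simulated shares and the 8 false calls therefore need not hold for these data. Folds are ratios of mean normalised counts, and a fold against a group at 0 is a bound from 3 reads over the group. That bound covers the sampling of reads only. In the knockout group 39.5% of genes with at least 20 reads in a library were at 0 in another. Coordinates are from GENCODE M21 (GRCm38), which held 99.3% of the genes, and promoters from RefSeq (GRCm38.p6). The CLEAR core was also searched in the disease-associated list and matched 2 of 35 genes with a window, Ctsa and Ctsd. A further motif, GAGGAAGT of the factor PU.1, was in 2.45% of windows. It matched 1 of 26 homeostatic and 1 of 35 disease-associated genes with a window.

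The comparison, its gene lists, the motifs and the tests were chosen with earlier results of these data known. Named were Apoe, the 12 largest rises and 12 largest falls with groups apart, up to 6 called members of each list by adjusted p, the 8 strongest calls in each direction at a mean of at least 500, and up to 8 calls that depended on library 8. Some of these are not reported here, and genes described outside this rule were chosen after their values were seen.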

Additional observations from a re-analysis of the deposited data

Results flagged for a closer look

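In each group the lowest and the highest library were set against the gap to their nearest neighbour, by Dixon's criterion at 95%, for the genes described, 4 library measures and the summed lists. Of 348 such groups 25 had a library apart. For 9 of these the other 3 libraries of the group were at 0, so that the gap equals the range by construction, and 17 groups at 0 in every library could not have one. Among the remaining 322 groups, 16 (4.97%) had a library apart, where chance gives about 1 in 20.

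Of the 25, 17 were in the knockout group. Knockout library 1 stood apart from the other 3 for Npc2 at 3991 against 3189 to 3195, for Herpud1 at 836.1 against 1069 to 1094 and for Pdia6 at 1195 against 1103 to 1111. It was also the only knockout library with reads of Gpnmb (7.38), Pf4 (11.9), Tgfb2 (21), Tgfbr3 (7.95) and Fn1 (0.568). Knockout library 2 was apart for Pkm at 201.3 against 273 to 281.8 and for Scd2 at 297.9 against 135.1 to 148.9, and alone had reads of Icam2 (8.91). Knockout library 3 was lowest in the summed level of Toll-like receptors and adaptors, at 5420.0 against 5977 to 6057, highest for Ptafr, at 853.2 against 594 to 603.9, and alone had reads of Gla (3.89). Knockout library 4 was lowest for Itgax at 19.5 against 51.1 to 61.5 and alone had reads of Cfp (30.6) and Saa3 (4.43).

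The other 8 were in the wild-type group. Wild-type library 1 was apart for Gda (424.9 against 489.9 to 518.7) and Ifngr1 (1180.0 against 824.4 to 920.1). Wild-type library 2 was apart for Bhlhe40 (144.8 against 93.6 to 105.4), Hbb-bs (1762 against 1377 to 1508), Lrp8 (18.1 against 36.7 to 48.3) and Prg4 (333.1 against 214 to 244.5). Cox6c was lowest in wild-type library 4 (984.2 against 1259 to 1429) and Tgfbr2 highest in wild-type library 7 (477.5 against 318.3 to 368.7).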

How the results depend on the processing

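Across the 10 libraries the counts of 3169 called genes, 791 higher and 2378 lower, moved by more than 1.5 times under 5 alternatives. edgeR called 1439 genes lower, a mean of at least 50 gave 1875 calls with 1129 lower, and no filter on level gave 3908 lower. Fewer or more genes were tested under these filters (5696 and 17884); the cause of the edgeR difference was not tested. Quantile rescaling gave 1584 higher and 1563 lower. With the replicate block 1877 genes were called, 382 higher and 1495 lower. Same-numbered libraries did not deviate together (r of their deviations from group means over genes 0.017, −0.012, 0.007 and −0.014), so the numbers were not taken to pair the libraries. Leaving out 1 library at a time gave 2596 to 3623 calls, 672 to 974 higher and 1924 to 2665 lower. The calls fell to between 2596 and 2643 without a wild-type library and rose to between 3382 and 3623 without a knockout library. Apoe ran from −12.66 to −10.25 on the log2 scale over all alternatives, with a highest limma, edgeR or DESeq2 adjusted p of 0.00105. Of the single genes recomputed, 148 kept their direction and side of the threshold under every alternative that tested them and 81 changed under at least 1; none of the called ones reversed. DESeq2, TMM rescaling, a pseudocount of 5 and equal depth kept all 3 counts within 1.5 times. At means of 10 to 50, 66.1% of the genes had a knockout library at 0 and 2.51% a wild-type library at 0, although the knockout libraries were the deeper ones; the cause was not tested.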
